A study of Mus musculus with 2 samples.

Results

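Dendritic epidermal T cells (DETC) of mouse ear skin were followed in 1 single-cell RNA-seq library of control skin and 1 of skin with allergic contact dermatitis (ACD). They were selected on measured counts of unique molecular identifiers (UMIs) in each barcode: at least 2 UMIs of Cd3d, Cd3e and Cd3g together, at least 1 of Avil, at least 2 of Avil and Cd7 together, and none of Cd4, Cd8a, Cd8b1, Foxp3 or Cd163l1. Of 12213 control barcodes that passed the cell filter 108 were DETC, and of 11665 ACD barcodes 100 were. The mice were ICR, 7 to 8 weeks old and, per the study's methods, male. Control mice gave healthy ear skin, whereas ACD mice had received 1.0% 2,4-dinitrofluorobenzene (DNFB) on the dorsal skin, were challenged on day 6 with 0.2% DNFB on the ears, and were sampled 60 hr later. How many animals went into each library is not given in the sources used here. Each group was 1 library, which leaves nothing to test against, so every range in parentheses is an exact 95% interval for counting error only, and differences between animals, digestions and libraries cannot be told apart from the effect of ACD.

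DETC are gamma delta T cells that settle in the mouse epidermis before birth and stay there, with long processes between keratinocytes. They carry a nearly uniform T cell receptor, read stress ligands on keratinocytes through receptors shared with natural killer (NK) cells such as NKG2D, and are known for growth factors and cytokines that act on keratinocytes and for cytotoxic granules. Genes for the T cell receptor chains, which would name these cells directly, were missing from the annotation of the files (7 of 7 searched: Trac, Trbc1, Trbc2, Trdc, Trdv4, Tcrg-C1 and Tcrg-V5). The name therefore rests on other markers.

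DETC held 495806 UMIs in control and 662346 in ACD, with medians of 3543 UMIs per cell (1403 to 18143) and 4942.5 (1064 to 24287). The libraries shared 50 deposited barcodes, and 2 DETC barcodes also occurred in the other library. A further 1 control and 13 ACD barcodes met the marker rule but failed the cell filter.

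The 4 marker genes were present in both libraries. Avil, an actin-binding protein of the villin family, and Cd7, a surface glycoprotein of lymphocytes, chose the cells, so their levels are a description: Avil had 476 UMIs per 1000000 in control DETC and 426 in ACD, and Cd7 had 3124 and 2678. Klra5, an inhibitory lectin receptor of the Ly49 family, was not used by the rule. Klra5 UMIs were present in 48 of 108 control DETC and 48 of 100 ACD DETC. Its level was 224 per 1000000 (184 to 270) in control and 171 in ACD, against 3.59 and 5.29 in dermal gamma delta T cells, which were gated on Cd163l1. Nrgn, a calmodulin-binding protein, was found in 23 control and 49 ACD DETC. Nrgn does not single out DETC: after thinning to 2000 UMIs per cell it was found in 16.3% of control DETC and in 25% of control NK and ILC1 cells (8 before thinning), and in 20.6% of ACD DETC and 9.95% of ACD CD8 T cells. Klra5 was at 222 per 1000000 in control CD8 T cells, of which there were 10, and at 6.47 in ACD CD8 T cells. The label therefore rests on the rule and, of the markers it did not use, mainly on the Klra5 share. At the edge of the rule, 0 control and 3 ACD DETC had exactly 2 UMIs of Avil and Cd7 together, and 1 cell in each library had 1 Avil UMI and no Cd7 and lay just outside. Another 56 control and 114 ACD cells had at least 2 Cd7 UMIs but no Avil, and their Klra5 levels were 155 and 96.7 per 1000000.

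Some DETC barcodes also carried the genes of other cells. Over 2 UMIs per 1000 came from 33 chondrocyte, fibroblast, keratinocyte and myeloid markers in 24 control and 12 ACD DETC, and at least 5 UMIs of the class II genes H2-Aa and H2-Ab1 were found in 3 and 8. Those 3 and 8 barcodes held 99.3% and 98.8% of all class II UMIs in DETC. Without both kinds, 82 DETC remained in each library, with medians of 3471 and 4324 UMIs, whereas the barcodes left out had medians of 8229 and 12312.5. Fibroblast markers, all 6 detected, summed to 12200 UMIs per 1000000 in control and 6466 in ACD DETC, and to 551 and 271 in the 82 remaining cells of each. Langerhans cell markers, all 6 detected, summed to 3435 and 10972, and to 77.2 and 133 in the remaining cells. These limits were set after the values had been seen. The 82 remaining cells of each library are called restricted DETC here, and ratios are over all DETC unless the restricted cells are named. The limits cover only the markers they count. In restricted DETC the melanocyte markers still summed to 435 and 430 per 1000000, with 97.6% of those UMIs of control DETC and 72.9% of those of ACD DETC in 1 cell each, and in ACD the NK and ILC1 markers summed to 111 and the mast cell and basophil markers to 71.3.

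**Figure D1:**
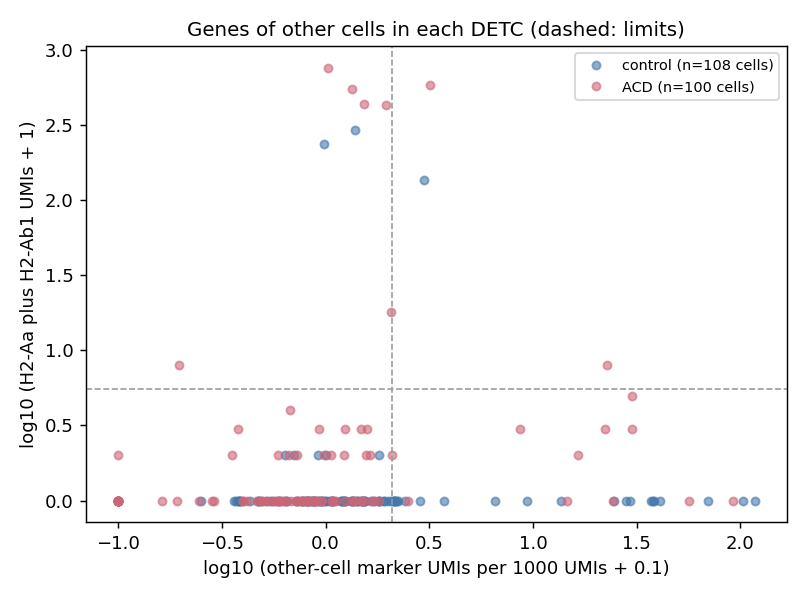
Genes of other cells in each DETC. Each point is 1 cell of the control (108) or ACD (100) library, with log10 of other-cell marker UMIs per 1000 UMIs (0.1 added) on the x axis and log10 of H2-Aa plus H2-Ab1 UMIs (1 added) on the y axis. Dashed lines are the limits, and 82 cells of each library lie below both.

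DETC made up a similar share of all kept cells in both libraries and a smaller share of T cells in ACD. They were 0.884% of kept cells in control (0.726 to 1.07) and 0.857% in ACD (0.698 to 1.04), and the log2 ratio was -0.04 (-0.45 to 0.36). Among cells with at least 2 Cd3 UMIs they were 13.4% of 805 in control and 3.19% of 3130 in ACD, a log2 ratio of -2.07 (-2.48 to -1.66). The T cell total differed: dermal gamma delta T cells numbered 181 and 417, and CD8 T cells 10 and 637. Against epidermal neighbors, there were 83.1 DETC per 100 keratinocyte-gated cells in control and 110 in ACD, from 130 and 91 keratinocyte-gated cells. Shares depend on how many cells of each type survived digestion, which was not tested.

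Leading genes are those that set DETC apart from other T cells. They were ranked by the smaller of their log2 ratios over the other Cd3-gated cells in the 2 libraries. A gene had to be high in both libraries to lead, so its presence in both follows from the ranking. Since the same cells were chosen on T cell and marker genes, these ratios are a description. Fcer1g, the shared signaling chain of Fc receptors and some NK receptors, came first with 1242 UMIs per 1000000 in control and 1345 in ACD DETC, against 60.9 and 71.2 in other Cd3-gated cells. It was found in 106 of 108 and 99 of 100 DETC. In dermal gamma delta T cells its level was 24.3 and 33.8, whereas NK and ILC1 cells had 1243 and 1019.

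Adhesion and surface genes followed. Fermt2, an integrin activator, had 1125 per 1000000 in control and 983 in ACD DETC, against 130 and 52.4 in other Cd3-gated cells. Cntn1, a neural adhesion molecule, had 163 and 143, against 7.36 and 1.68. Unc5b, a netrin receptor, had 228 and 168. Adgrg1, an adhesion G protein-coupled receptor also seen on cytotoxic lymphocytes, had 192 and 187. Hpse, which cuts heparan sulfate, had 163 in both libraries. Of these genes Unc5b differed most between control and ACD, with a log2 ratio of -0.44 (-0.83 to -0.05).

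Regulators of G protein signaling were the most abundant of the group. Rgs1 had 8673 and 8120 per 1000000 and Rgs2 had 3705 and 3469, against 1211 and 1140, and 455 and 273, in other Cd3-gated cells. Rgs2 was found in 106 of 108 control DETC and in 100 of 100 ACD DETC. Among NK-type receptors, Klrb1b was found in 46 control and 59 ACD DETC, Kir3dl2 in 35 and 37, Klrk1 (NKG2D) in 83 and 82, and Klrd1 (CD94) in 85 and 80. Hcst (DAP10), the adaptor of NKG2D, was found in 80 and 82. Amica1 (JAML), a costimulatory receptor known from DETC, was found in 29 and 36 DETC, and its level of 74.6 and 87.6 was lower than the 557 and 464 of dermal gamma delta T cells. Cd207 also ranked high, but 5 cells of each library held all of its UMIs, and restricted DETC had 1 UMI in control and 0 in ACD.

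**Figure D2:**
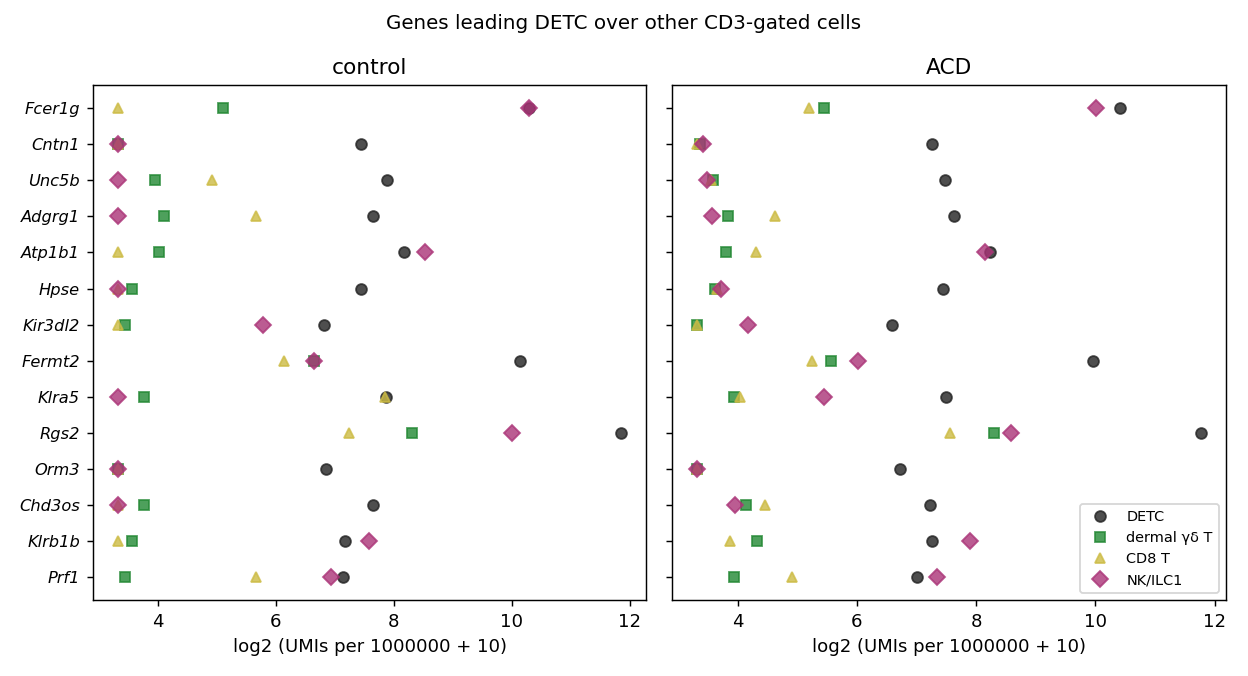
Levels of 14 genes that led restricted DETC over other Cd3-gated cells. The x axis is log2 of UMIs per 1000000 (10 added), in control (left) and ACD (right), for all DETC, dermal γδ T, CD8 T and NK/ILC1 cells. Fcer1g, Atp1b1, Klrb1b and Prf1 levels of DETC lie near those of NK/ILC1 cells, while Cntn1 and Orm3 are near the floor in the other populations; control CD8 T and NK/ILC1 points rest on 10 and 8 cells.

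Markers of dermal gamma delta T cells and of NK and ILC1 cells were at or near 0 in DETC, but markers listed for other lymphocytes were not all low. Of the dermal gamma delta T cell markers, Cd163l1 (excluded by the rule), Blk and Il17f had no UMI in either library, and the 8 markers summed to 3 UMIs in control and 5 in ACD. NK and ILC1 markers summed to 1 and 45 UMIs, all 45 in 1 ACD cell. Gzma, which is 1 of these markers, gave 35 of the 45 UMIs, and no other ACD DETC had a Gzma UMI. The list for type 2 innate lymphoid cells (ILC2), which includes Gata3, Areg and Il13, had 379 UMIs in 67 control cells and 450 in 74 ACD cells, with Arg1 at 0 in both libraries. The list for regulatory T cells had 48 UMIs in 34 cells and 60 in 31, all of them from the transcription factor gene Ikzf2, since Foxp3 (excluded by the rule) and Izumo1r were at 0.

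Between control and ACD, 3323 genes had at least 50 UMIs over all DETC. Of these, 102 (3.07%) were at least 2-fold higher in ACD and 83 (2.5%) at least 2-fold lower, on a log2 scale with 10 UMIs per 1000000 added, and the median log2 ratio was -0.04. In restricted DETC 2106 genes could be compared, of which 50 (2.37%) were higher and 25 (1.19%) lower. Of the lipid uptake and handling list 13 genes were compared and 3 were lower in all DETC, against 0 of 5 in restricted DETC. In all DETC the lower genes included Apoe (log2 ratio -1.59), Lpl (-2.04), Igfbp4 (-2.42) and Plin2 (-2.11), genes of lipid handling and stroma. In restricted DETC the log2 ratio of Apoe was -0.22, and Lpl (1 and 0 UMIs), Igfbp4 (4 and 0) and Plin2 (2 and 5) were below the minimum. The 10 lowest genes of all DETC and of restricted DETC had none in common, but of the latter all except Strn3 (log2 ratio -0.63 with 10 added) were also past 2-fold lower in all DETC. Of the 10 highest genes, 5 were shared.

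Genes of the interferon response and of class I antigen presentation were higher in ACD DETC. Of the 56 genes listed, 29 had enough UMIs, and 19 of these were at least 2-fold higher and 0 lower, against 3.07% and 2.5% of all genes. The median log2 ratio of the 29 was 1.32, and in restricted DETC 17 of 22 were higher, with a median of 1.64. The median of all genes was -0.04 and -0.06.

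Class I molecules present peptides from inside the cell, and the heavy chains named here and the light chain were higher in ACD. H2-D1 (chr17:35262730-35267499), a heavy chain, went from a median of 14.7 UMIs per 10000 per cell in control (lowest 0, highest 50) to 71.9 in ACD (3.38 to 155). Its summed level was 1797 per 1000000 in control and 7486 in ACD, a log2 ratio of 2.06 (1.96 to 2.16). The ranges of single cells overlapped, but the control maximum lay below the ACD median. B2m (chr2:122147686-122153083), the light chain, had 569 per 1000000 in control and 2595 in ACD, a log2 ratio of 2.19 (2.01 to 2.38). Its median per cell was 4.33 UMIs per 10000 in control (0 to 20.7) and 22.8 in ACD (0 to 73.9). H2-K1, the other classical heavy chain, had a log2 ratio of 2.12 (1.93 to 2.33).

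The nonclassical heavy chains H2-Q4, H2-Q6, H2-Q7, H2-T22 and H2-T23 showed the same direction. H2-Q4 was found in 24 control and 77 ACD DETC, a log2 ratio of 2.75 (2.19 to 3.35). H2-Q7 had 7 UMIs in control and 146 in ACD (log2 ratio 3.96, 2.89 to 5.30), with 1 and 99 in restricted DETC (6.12, 3.61 to 11.4), and H2-Q6 had 1 and 53. H2-Q genes are close copies, so how reads were split among them is uncertain. H2-T23 and H2-T22 had log2 ratios of 1.31 and 1.79.

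The genes that make and load the peptides were higher too. The immunoproteasome subunits Psmb8 (chr17:34197721-34201454) and Psmb9 had log2 ratios of 2.45 (1.96 to 2.99) and 2.96 (1.91 to 4.22), and Psmb8 was found in 28 control and 69 ACD DETC. The peptide transporter gene Tap2 (1.64) and the loading factor Tapbp (1.70) were also past 2-fold, while the partner transporter Tap1 had 6 and 40 UMIs, below the minimum. The interferon-induced GTPase gene Gbp4 had 1.81, and Bst2 (tetherin) had 1.42. Ifitm1 also passed 2-fold, but all 69 of its ACD UMIs lay in 3 cells. Ly6a, a surface marker induced by interferons, had a log2 ratio of 0.71 in all DETC but 3.61 (2.91 to 4.41) in restricted DETC, where its UMIs numbered 17 and 296.

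Members of the list that did not pass 2-fold included Ifitm2 (log2 ratio -0.12), Ifitm3 (0.10), Isg15 (0.94) and Irf1 (0.36). In dermal gamma delta T cells and chondrocyte-gated cells B2m had log2 ratios of 1.96 and 2.46, and Psmb8 had 1.59 and 4.45. In CD8 T cells, with 10 control cells, B2m had 0.40, H2-Q4 -0.01, H2-Q7 -0.30 and Psmb8 1.83. In NK and ILC1 cells, with 8 control cells, B2m and Psmb8 both had 0.64 and Psmb9 had -0.35. The part of free RNA in the droplets was not tested. The level of B2m in ACD was 2595 per 1000000 in DETC and 1398 in chondrocyte-gated cells, and after thinning to 2000 UMIs per cell B2m was found in 94.8% of ACD DETC and 75.8% of chondrocyte-gated cells (median depths 4942.5 and 10289).

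**Figure D3:**
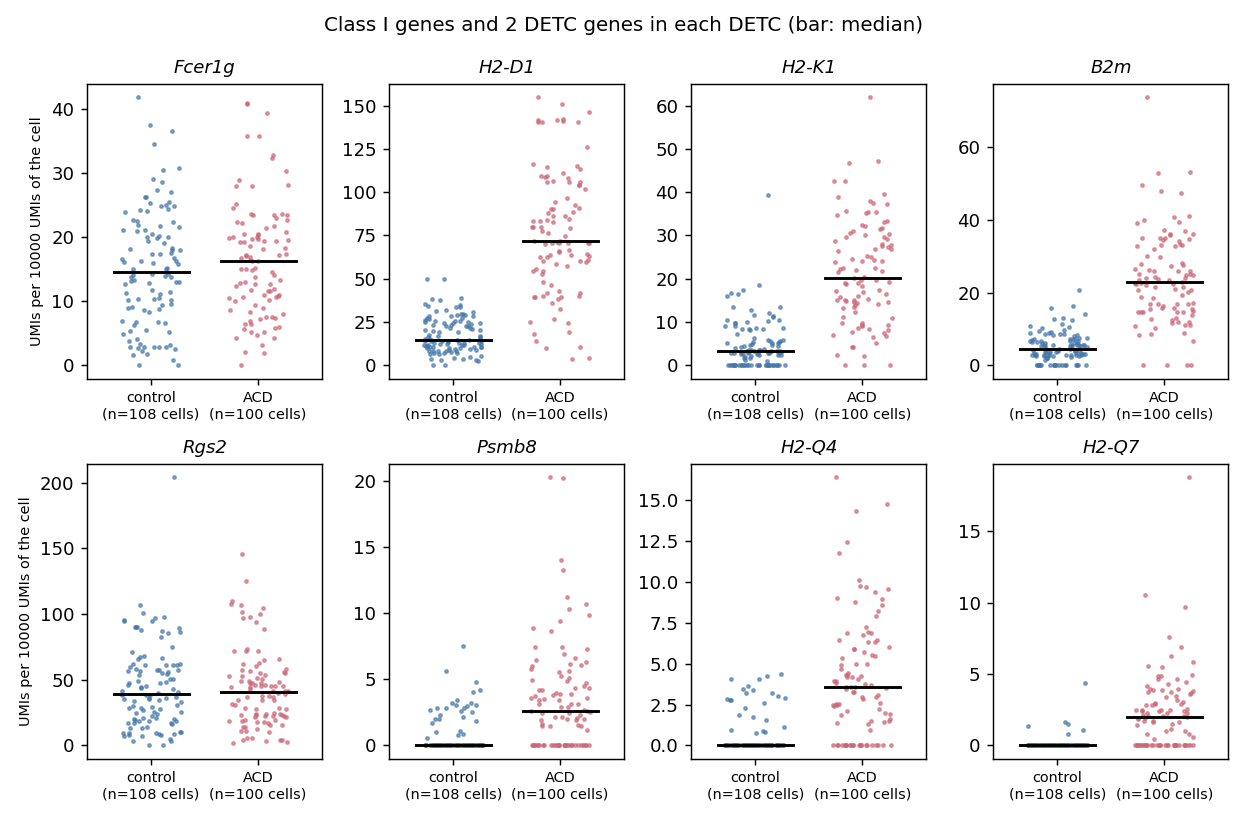
Class I genes and 2 DETC genes in single DETC. Each point is 1 cell, as UMIs per 10000 UMIs of that cell, and the bar is the median over 108 control or 100 ACD cells. Fcer1g and Rgs2 have like medians in both libraries, whereas the H2-D1 median is 14.7 in control and 71.9 in ACD.

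The promoters of 4 of these genes are shown because the group moved together, with the 250 bases before the start given by RefSeq on GRCm38.p6. Capitals mark matches, on either strand, to TTCNNNGAA, the gamma-interferon activated site (GAS), or to the core of the interferon-stimulated response element (ISRE), searched as paired GAAA repeats with 2 bases between them. In B2m (chr2:122147437-122147686, plus strand) the match is to the ISRE, in Psmb8 (chr17:34197945-34198194, plus strand) to the GAS, and in Bst2 (chr8:71537473-71537722, minus strand) to 1 GAS and 2 overlapping ISRE cores that run on from it. H2-D1 (chr17:35262844-35263093, plus strand) has no exact match to either pattern in this window. Near matches were not counted in any promoter, so the lack of a match does not show that such an element is absent. The RefSeq starts of Psmb8 and H2-D1 lie inside the gene spans given above.
B2m: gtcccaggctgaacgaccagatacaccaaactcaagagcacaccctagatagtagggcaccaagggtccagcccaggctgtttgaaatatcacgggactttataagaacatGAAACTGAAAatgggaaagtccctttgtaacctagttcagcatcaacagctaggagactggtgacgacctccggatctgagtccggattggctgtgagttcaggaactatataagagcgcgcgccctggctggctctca
Psmb8: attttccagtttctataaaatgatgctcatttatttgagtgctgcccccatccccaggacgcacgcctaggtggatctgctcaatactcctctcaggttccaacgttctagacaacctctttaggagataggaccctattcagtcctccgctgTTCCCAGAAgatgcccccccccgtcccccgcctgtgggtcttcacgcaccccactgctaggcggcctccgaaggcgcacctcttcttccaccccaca
Bst2: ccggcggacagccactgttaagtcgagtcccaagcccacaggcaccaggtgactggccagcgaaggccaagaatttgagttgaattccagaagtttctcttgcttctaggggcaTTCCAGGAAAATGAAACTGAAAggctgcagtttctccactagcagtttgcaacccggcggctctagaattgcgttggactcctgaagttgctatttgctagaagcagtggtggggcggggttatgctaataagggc
H2-D1: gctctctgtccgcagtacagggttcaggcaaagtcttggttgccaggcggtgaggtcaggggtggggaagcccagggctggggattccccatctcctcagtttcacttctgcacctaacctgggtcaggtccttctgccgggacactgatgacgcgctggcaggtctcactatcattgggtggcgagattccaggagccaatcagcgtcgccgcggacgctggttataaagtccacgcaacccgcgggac
Of the 19 higher genes 15 had a promoter sequence, and 4 of these (26.7%) held the ISRE core and 2 (13.3%) the GAS, against 3.46% and 8.13% of 27025 promoters of the same length. Of the listed genes that were compared and did not pass 2-fold, 4 of 9 held the ISRE core and 3 of 9 the GAS. A match is a run of letters and was not tested as a binding site.

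Cell cycle genes were higher in ACD and came from a minority of cells. Of 30 listed genes 16 were compared, with 8 at least 2-fold higher, 0 lower and a median log2 ratio of 0.88, against 3.07% and 2.5% of all genes. In restricted DETC 6 of 14 were higher, against 2.37% of all genes. Mki67, the proliferation marker Ki-67, had 3 UMIs in 3 control cells and 80 UMIs in 14 ACD cells (log2 ratio 4.32, 2.72 to 6.63). Stmn1, a microtubule regulator of mitosis, was found in 5 and 28 cells, and the topoisomerase gene Top2a in 10 and 25.

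Cells with at least 3 UMIs of Mki67, Top2a, Birc5 and Ube2c together numbered 1 of 108 control DETC and 13 of 100 ACD DETC (13%, 7.11 to 21.2). Those 13 cells held 93.6% of the UMIs of the 4 genes, and their median depth was 10352 UMIs against 4638 in the other ACD DETC. After thinning to 2000 UMIs the counts were 1 of 104 and 10 of 97, and among restricted DETC 0 of 82 and 9 of 82. In dermal gamma delta T cells the shares were 11.6% and 19.7%. Whether depth or a second cell in the droplet takes part in these counts was not tested.

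Among secreted factors, Xcl1 and Il13 had more UMIs in ACD DETC and Areg had fewer. Of 30 listed cytokines, chemokines and growth factors 8 were compared, and 2 of them, Xcl1 and Ccl5, were at least 2-fold higher, against 3.07% of all genes. In restricted DETC 1 of 6 was, Xcl1 (1.14), and Ccl5 had 0 and 38 UMIs there, below the minimum. Xcl1 (chr1:164931644-164935527), the chemokine that draws XCR1+ dendritic cells, had 47 UMIs in 23 control cells and 162 UMIs in 34 ACD cells, a log2 ratio of 1.37 (0.89 to 1.87). The highest cell had 28.4 UMIs per 10000 in control and 63.1 in ACD, while the median was 0 in both. In chondrocyte-gated cells 0.0903% and 1.22% had an Xcl1 UMI. In dermal gamma delta T cells its log2 ratio was -0.64, from few cells, with a UMI in 1.10% of control and 2.88% of ACD cells.

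Il13 (chr11:53631324-53634702), a type 2 cytokine, was found in 38 control and 50 ACD DETC, with 60 and 121 UMIs, a log2 ratio of 0.59 (0.14 to 1.07). After thinning, 17.3% of control and 29.9% of ACD DETC had an Il13 UMI, against 0% and 0.141% of chondrocyte-gated cells. Dermal gamma delta T cells had levels of 0 and 1.65 per 1000000, whereas DETC had 121 and 183. The type 2 cytokines Il4 and Il5 had 1 and 0 UMIs over control DETC and 0 in ACD. Areg, a growth factor that acts on the epidermal growth factor receptor, had 290 UMIs in 28 control cells and 264 in 21 ACD cells, a log2 ratio of -0.55 (-0.80 to -0.31), while in dermal gamma delta T cells it was 2.75. Its highest cell had 92.6 UMIs per 10000 in control and 140 in ACD, with medians of 0.

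Other cytokines were scarce. Ifng had 0 UMIs in control DETC and 3 in 1 ACD cell, against 496 per 1000000 in ACD CD8 T cells. Il17a had 0 and 1 UMIs, Il22 none, and Csf2 had 4 in each library. Fgf7 and Fgf10, keratinocyte growth factors known from DETC, had 7 and 12, and 1 and 3 UMIs. Ccl5 had no UMI in control and 68 in 10 ACD cells, at least 17.0-fold higher when control is set to 3 UMIs, but after thinning 4.12% of ACD DETC had a UMI against 1.04% of chondrocyte-gated cells, and 1 cell held 42.6% of them. Nrgn, among the markers, had 64.5 and 137 UMIs per 1000000, a log2 ratio of 1.09 (0.49 to 1.72) that fell short of 2-fold once 10 UMIs per 1000000 were added. In restricted DETC it passed, with 80.7 and 182 per 1000000 and a log2 ratio of 1.17 (0.48 to 1.92).

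**Figure D4:**
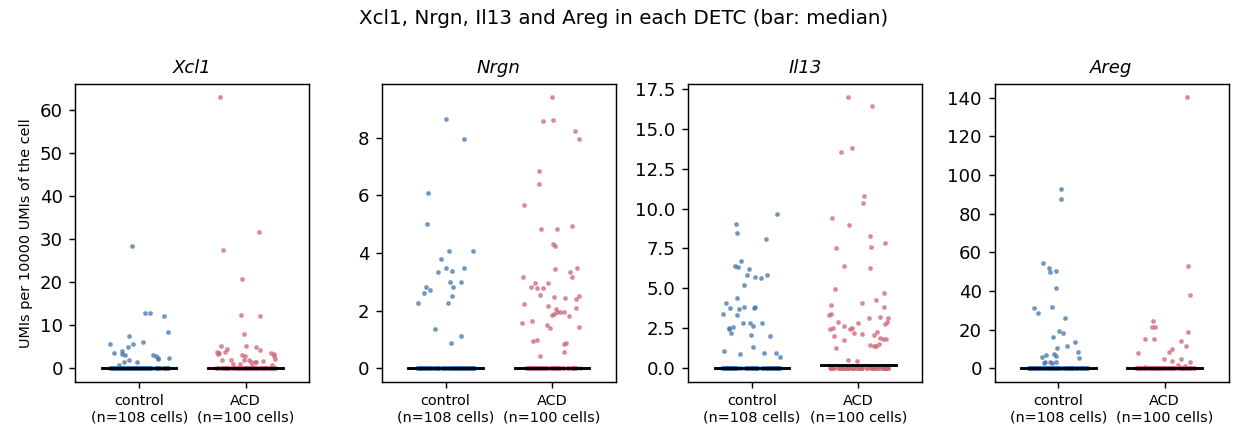
Xcl1, Nrgn, Il13 and Areg in single DETC. Each point is 1 cell, as UMIs per 10000 UMIs of that cell, and the bar is the median over 108 control or 100 ACD cells. Xcl1 was found in 23 and 34 cells and Areg in 28 and 21, so that most cells lie at 0.

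None of the cytotoxic genes that could be compared in DETC passed 2-fold. Of 18 listed genes 9 were compared, with a median log2 ratio of 0.09. Of all genes 3.07% were higher and 2.5% lower, so 0 of 9 is near the share of all genes. Nkg7, a granule protein, had 1396 and 1484 UMIs per 1000000, and Prf1, the pore-forming protein perforin, had 131 and 119. Gzmb, the granule protease granzyme B, had 1 UMI in control and 25 UMIs in 15 ACD cells, too few to be compared, and after thinning it was found in 2.06% of ACD DETC. In ACD CD8 T cells the Gzmb level was 416 per 1000000, and in ACD DETC it was 37.7.

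Most other programs did not pass 2-fold in any gene. This held for T cell receptor signaling (15 compared), homing and tissue retention (11), costimulation (5), transcription factors (15), immediate-early and heat-shock genes (29), glycolysis (15) and the respiratory chain (32, median log2 ratio 0.28). Of all genes 3.07% were higher and 2.5% lower, so a count of 0 in lists of this size is near the share of all genes. Itgae (CD103), which binds E-cadherin on keratinocytes, had 349 and 316 per 1000000, Runx3 478 and 462, and Ahr, the aryl hydrocarbon receptor needed to keep these cells in the epidermis, 121 and 133. In restricted DETC the heat-shock gene Hspa1a did pass, with a log2 ratio of 1.82 (1.44 to 2.21) against 0.91 in all DETC. Among 26 actin and adhesion genes compared 1 passed, Coro1a (1.15, 0.84 to 1.47), and 0 of 24 did in restricted DETC, where Coro1a had 0.87. Actb had 0.89. Tyrobp (DAP12) was the only NK receptor or adaptor past 2-fold, from 126 UMIs in 11 ACD cells, and it had 0 and 19 UMIs in restricted DETC.

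Most class II UMIs lay in the mixed barcodes described above. Cd74, the class II chaperone, had log2 ratios of 1.82 in all DETC and 1.07 (-0.46 to 2.89) in restricted DETC, and after thinning it was found in 14.4% of ACD DETC and 20.5% of chondrocyte-gated cells. For H2-Aa these shares were 12.4% and 6.74%.

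Crem, a cAMP-responsive transcriptional regulator, led the lower genes of restricted DETC. It had 185 and 100 UMIs in all DETC, with a log2 ratio of -1.31 (-1.67 to -0.95) there and -1.59 in restricted DETC. Cyp51, an enzyme of cholesterol synthesis, had -1.56 and -1.46, and Kdm5a, a histone demethylase, had -1.26 and -1.44. Over all DETC, Nedd4l, a ubiquitin ligase, had 41 and 10 UMIs (-2.45, -3.62 to -1.43), and Il4ra, the receptor chain for IL4 and IL13, had 33 and 18 (-1.29, -2.21 to -0.42). Neither was compared in restricted DETC, where Nedd4l had 33 and 8 UMIs and Il4ra 20 and 13, below the minimum of 50. The lower Nedd4l level was not particular to DETC. Its log2 ratio was -2.44 (-3.25 to -1.67) in dermal gamma delta T cells and -2.86 in other Cd3-gated cells.

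**Figure D5:**
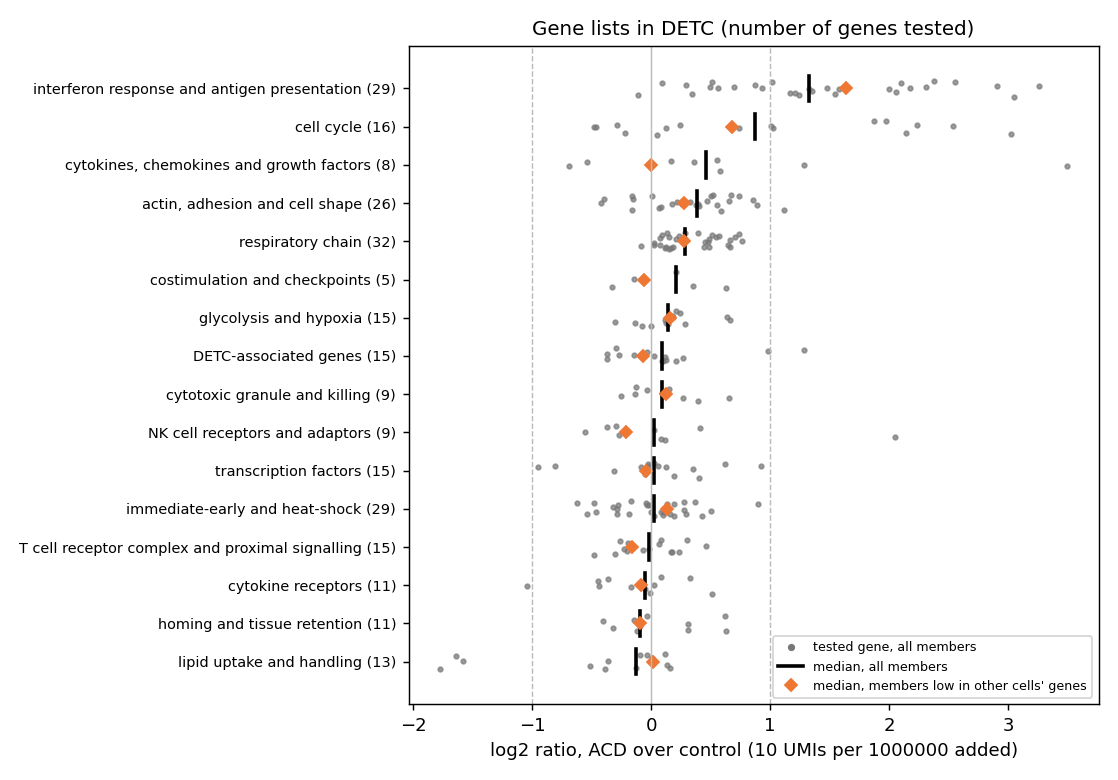
Gene lists in DETC. The x axis is the log2 ratio of ACD over control (10 UMIs per 1000000 added), each grey point is 1 gene with at least 50 UMIs, black bars are medians over all DETC, orange diamonds are medians in restricted DETC, and dashed lines mark 2-fold. The interferon and antigen presentation list has the highest median, 1.32, followed by cell cycle at 0.88.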

How the data were processed

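The authors dissociated ear skin with collagenase D and DNase1, removed dead cells, made 3' libraries on the 10x Chromium platform and aligned reads to mm10 with Cell Ranger (3.1.0 in the submitters' processing notes). They deposited UMI counts per gene and barcode for 27998 genes, not normalized. Python 3.11.15, numpy 2.4.6, scipy 1.17.1, pandas 2.3.3, scanpy 1.11.5 and matplotlib 3.10.9 were used. The cell filter required more than 200 but fewer than 5000 genes, no more than 25000 UMIs and a mitochondrial share below 8%. Doublets were not removed in the main setting.

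DETC and the gene lists were chosen with earlier results of these data known. UMIs were summed over DETC of a library and scaled to 1000000. Intervals are exact Poisson for levels, Clopper-Pearson for shares and conditional binomial for ratios. Genes with at least 50 UMIs over DETC were compared, with 10 UMIs per 1000000 added, and 2-fold was the rule of size. Ratios of single genes have nothing added, with or without an interval, unless stated. The 2-fold rule, the rankings and the medians of lists and of all genes use 10 added. Gene ratios under alternative processing have 10 added as well, apart from the pseudocount alternative. Without control UMIs, 3 were taken. Comparison cells were gated on marker UMIs: dermal gamma delta T (Cd163l1), CD8 T (Cd8a, Cd8b1), NK/ILC1 (Ncr1, Klrb1c) and chondrocytes (Acan, Col2a1, Comp).

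Named genes were the gate and marker genes, members of each list with the highest and lowest ratios or a known role, the 10 genes at each end found in at least 10% of DETC, and the 15 leading genes; results for some of them are not reported here. Genes at the ends of restricted DETC were chosen after their values were seen. Positions come from GENCODE M21 (27722 identifiers found). The interval code was tested on simulated Poisson counts and passed. Those counts follow the model that the intervals assume, so the test checks the code only. It cannot show how the intervals hold where UMIs lie in few cells. The depth was 99037698 UMIs in control and 126566870 in ACD. Alternatives covered filters, gates, Scrublet, thinning, scaling, pseudocount and UMI minimum.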

Additional observations from a re-analysis of the deposited data

Results flagged for a closer look

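Only named genes with a log2 ratio of at least 1 in size in DETC were screened here. Several of them had ratios in opposite directions in DETC and in dermal gamma delta T cells, with neither counting interval holding 0. The difference between the cell types was not tested. Only DETC were restricted, and dermal gamma delta T cells were used with any mixed barcodes among them. In dermal gamma delta T cells the log2 ratio was -1.49 for Apoe, -1.22 for Lpl and -0.66 for Igfbp4, against 1.58 for Plin2. Whether mixed barcodes take part in the ratios of dermal gamma delta T cells was not tested. For Xcl1 the log2 ratio of ACD over control was 1.37 in DETC and -0.64 (-1.23 to -0.03) in dermal gamma delta T cells, and it was 1.14 in restricted DETC. The -0.64 came from few cells, since 1.10% of control and 2.88% of ACD dermal gamma delta T cells had an Xcl1 UMI. That share was higher in ACD, unlike the ratio. For Nrgn the log2 ratio was 1.09 and -1.58, with 1.17 in restricted DETC. For Sox4 it was 1.11 and -1.98, but 0.22 in restricted DETC. For Plin2 it was -2.11 and 1.58, but 0.81 in restricted DETC. For the class II genes it was 1.61 and -0.56 (H2-Ab1), 1.73 and -1.64 (H2-Aa) and 1.82 and -0.40 (Cd74), and 8 mixed barcodes held 98.8% of the H2-Aa and H2-Ab1 UMIs of ACD DETC. Crem was not in the screen. Its log2 ratio was -1.31 in DETC, -1.59 in restricted DETC and 1.02 (0.52 to 1.55) in dermal gamma delta T cells.

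In data outside the comparisons, 13 ACD barcodes met the marker rule for DETC but failed the cell filter, against 1 in control. Of the 13, 9 were over the UMI limit, 7 over the gene limit and 4 over the mitochondrial limit.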

How the results depend on the processing

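No paired analysis was possible because each group was 1 library. For both DETC shares the log2 ratio of ACD over control stayed within its counting interval in all 21 checks, counted per share and alternative. The shares themselves moved with the gate, since the stricter gate chose 71 DETC in each library against 108 and 100. The main counts of 102 higher and 83 lower genes moved by over 1.5 times as follows. Higher genes numbered 212 with all deposited barcodes, 58 without class II barcodes, 50 in restricted DETC, 211 at a minimum of 20 UMIs, 53 at 100 and 21 with DETC thinned to 2000 UMIs. Lower genes numbered 52 without Scrublet calls, 46 with the gate on thinned cells, 41 without barcodes over the other-cell limit, 25 in restricted DETC, 53 with median-of-ratios size factors, 181 at 20 UMIs, 40 at 100 and 14 with DETC thinned. Except for the size factors, these settings also changed how many genes were compared, from 3323 in the main setting. The number was 4352 with all barcodes, 2893 without Scrublet calls and 2928 without class II barcodes. It was 2414 without barcodes over the other-cell limit, 2136 with the gate on thinned cells and 2106 in restricted DETC. At minimums of 20 and 100 UMIs it was 6265 and 1746, and 1227 with DETC thinned. What else moved the counts was not tested. Both alternatives that leave out class II barcodes were chosen after seeing the data.

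Higher genes were 55.1% of those past 2-fold, and 68.8% with median-of-ratios size factors, which moved the median of all genes from -0.04 to 0.04. Scrublet called 4.68% of control and 3.29% of ACD cells, 11 and 5 of them DETC. The interferon list kept a median between 1.15 and 1.64, and the cell cycle list between 0.22 and 1.28. Among named genes with a log2 ratio of at least 1 in size, sign changes were those of Plin2 (0.55 with all barcodes, 0.25 with the stricter gate, 0.19 with the gate on thinned cells, 0.75 without barcodes over the other-cell limit, 0.39 in restricted DETC), Mgst1 (0.45 with all barcodes, 0.84 and 0.58 in the last 2), Rarres2 (0.24 with the stricter gate, 1.58 and 1.16 in the last 2) and Igfbp4 (1.22 with all barcodes). With the gate on thinned cells Tyrobp (-0.86), H2-Ab1 (-4.65), H2-Aa (-3.53) and Cd74 (-4.87) reversed. Genes with smaller ratios also changed sign, as Cd207 (0.94 to -6.26) and Il1r2 (0.33 to -3.98) did with that gate. Depth limits genes such as Gzmb, Ifng and Tap1, which stayed under 50 UMIs.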
